A study of Macaca mulatta with 6 samples.

Results

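SOX proteins are transcription factors that bind DNA through a shared HMG box and act with partner proteins, and they are grouped by sequence into families named with letters. SOX2 of the SOXB1 family partners the POU factor OCT4 (gene POU5F1) in pluripotent cells and later keeps neural progenitors, together with its relatives SOX1 and SOX3. SOX21 opposes the SOXB1 factors in neural progenitors, SOX4, SOX11 and SOX12 (SOXC) act in neuronal and mesenchymal differentiation, and SOX9 (SOXE) and SOX5 and SOX13 (SOXD) are best known from cartilage, gonad or other later lineages.

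The genes described are 10 SOX genes of pluripotent and neural cells, found by symbol among the 30246 gene rows of each library. Of these, 7 had a row (SOX2, SOX3, SOX4, SOX9, SOX11, SOX13 and SOX21), and SOX1, SOX12 and SOX15 were not analysed here. Each of the 7 had a single row, so no choice between rows was needed, and all 7 passed the filter on low values in 2 or more libraries. A further 9 SOX genes were used for comparison.

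RNA from 6 rhesus monkey (Macaca mulatta) induced pluripotent stem cell lines, reprogrammed from fibroblasts, was sequenced to compare the naive and the primed state. The medium of the male naive (2 lines) and female naive (2 lines) cells held LIF at 10 ng/ml, bFGF at 4 ng/ml and serum replacement at 15%, beside the GSK3 inhibitor CHIR99021 (3 µM), the MEK inhibitor PD0325901 (0.5 µM), the p38 inhibitor SB203580 (10 µM) and the JNK inhibitor SP600125 (10 µM). Male primed cells (2 lines) had a medium with serum replacement at 20% and bFGF, whose concentration is not given in the labels. Feeder cells were taken away before RNA extraction, and the lines are not tied to donors, so the spread between 2 lines may be biological or technical and the p-values measure only that spread. No female primed line was analysed here, and sex and line cannot be told apart between the naive groups.

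The unit is FPKM, the number of fragments scaled to transcript length and to library size. The sum of effective fragments, an estimate from the deposited error bounds of the fragments behind the values, was 1754857 and 1478692 for male naive lines, 8294782 and 10013491 for female naive lines and 9970137 and 7607125 for primed lines. Male naive values therefore carry the widest counting error. The share of all FPKM that fell in gene rows shorter than 300 bp was 22.3% and 24.4% for male naive lines, 16.0% and 11.7% for female naive lines and 9.32% and 14.9% for primed lines. Of 8 pluripotency markers, 6 rose and 0 fell in naive lines by limma at an adjusted p under 0.05, against 6.72% of all tested rows that rose and 4.59% that fell. SALL4 and LIN28B, which did not pass, lay between 46.4 and 98.8 FPKM in all 6 libraries. In primed libraries NANOG was at 0.933 and 2.09 FPKM, TDGF1 at 0 and 0.818 FPKM and PRDM14 at 0.520 to 1.13 FPKM, all near 0. The other markers that rose were higher there, with POU5F1 at 109 to 135, DPPA4 at 19.6 to 21.8 and L1TD1 at 10.7 to 21.7 FPKM.

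SOX2 had by far the highest FPKM of the SOX genes with a row, and no SOX gene of the 7 passed the test between naive and primed lines. SOX2, SOX11 and SOX21 were lower in every naive library than in either primed library, and SOX4 was higher in every naive library. SOX3, SOX9 and SOX13 overlapped between naive and primed libraries. Limma, fitted to log2(FPKM + 1) of all 13685 rows that passed the filter, called 0 of the 7 at a Benjamini-Hochberg adjusted p under 0.05, against 11.3% of all tested rows. At an unadjusted p under 0.05 it had 4 of the 7, against 30.9% of rows. Of all rows, 34.8% showed no overlap between these groups, 18.9% higher and 15.9% lower in naive lines, against 1 and 3 of the 7. The median difference over the 7 was -0.23 on the log2(FPKM + 1) scale, against 0.03 over all tested rows.

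**Figure D1:**
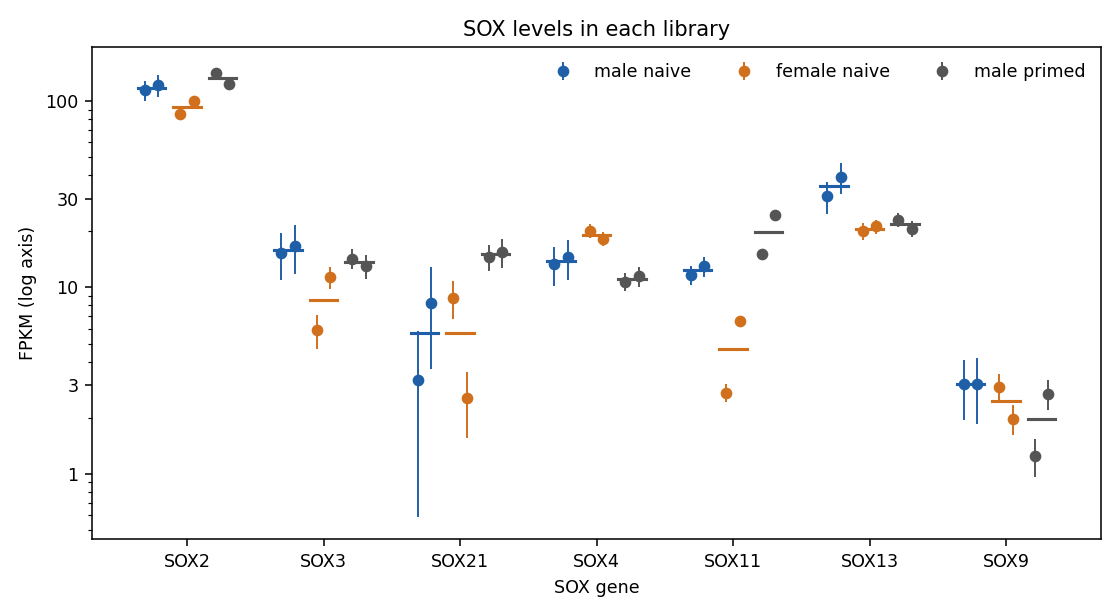
FPKM (log axis) of the 7 SOX genes in each of the 6 libraries, with deposited lower and upper bounds as vertical lines and group means as horizontal lines. SOX2 sits between 85.3 and 141 FPKM in every library, and the SOX11 and SOX21 points of naive libraries lie below those of primed libraries.

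SOX2 (ENSMMUG00000000675, chromosome 2, 104986762 to 104987721 in the coordinates of the deposited files) has a row of 960 bp, a multiple of 3, as a coding region without UTRs would span. Its level was 114 and 122 FPKM in male naive lines, 85.3 and 100.5 FPKM in female naive lines and 141 and 124 FPKM in primed lines. The highest naive library stood just below the lowest primed library, and the female naive lines were the lowest pair. The log2 difference between naive and primed lines was -0.34 (SE 0.12, 95% interval -0.63 to -0.05, limma adjusted p = 0.119). With quantile normalization, which forces the libraries to 1 distribution, it was -0.52 and passed (adjusted p = 0.0498). Between male naive and male primed lines it was -0.16 (95% interval -0.50 to 0.17, adjusted p = 0.5).

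SOX2 made up 56.2% to 61.8% of the summed FPKM of the 7 genes in naive libraries and 58.6% to 64.0% in primed libraries. Its partner POU5F1 was at 536 to 1160 FPKM in naive and at 135 and 109 FPKM in primed libraries, and rose by 2.55 in naive lines (SE 0.20, limma adjusted p = 0.00507). The FPKM ratio of SOX2 to POU5F1 within a library was 0.213 in both male naive lines, 0.116 and 0.0866 in female naive lines, and 1.05 and 1.14 in primed lines. SOX2 FPKM thus nearly matched POU5F1 FPKM in primed lines, while POU5F1 FPKM was 4.69 to 11.5 times SOX2 FPKM in naive lines. These are ratios of FPKM and not of counted molecules. The mean log2 ratio was -2.78 in naive and 0.12 in primed libraries, a difference of -2.90 that ran from -3.005 to -2.80 when each library was left out. A ratio within a library does not depend on scaling between libraries, but it was chosen after the values were seen and carries no test. POU5F1 has processed pseudogenes in primates, and how reads shared with them were counted is not given in the sources used here.

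**Figure D2:**
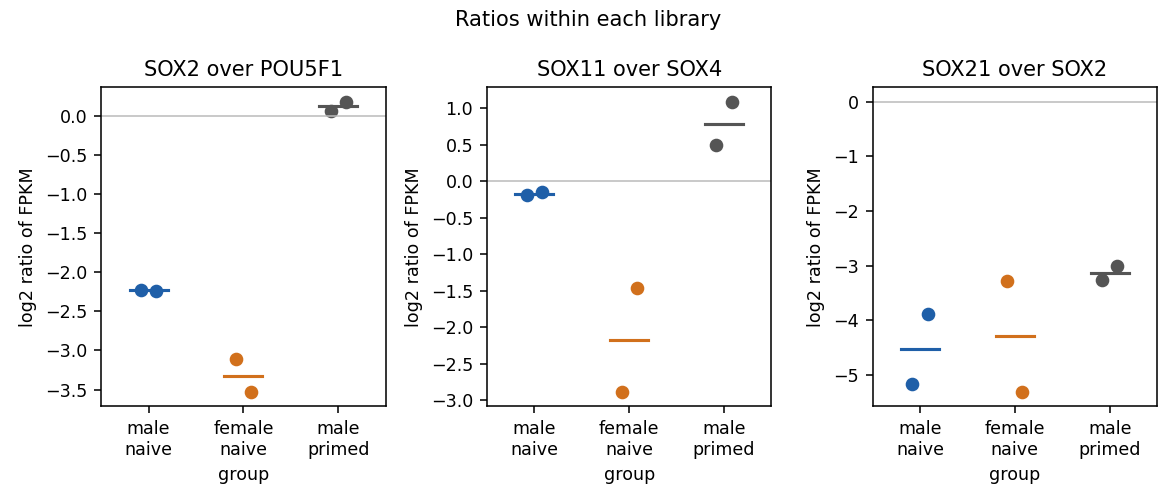
log2 ratio of FPKM of SOX2 over POU5F1, SOX11 over SOX4 and SOX21 over SOX2 within each library, by group, with points for libraries and lines for group means. The SOX2 to POU5F1 ratio is between 0.0866 and 0.213 in the naive libraries and 1.05 and 1.14 in the primed libraries, and the SOX11 to SOX4 ratio is above 1 in the primed libraries and below 1 in the naive libraries.

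SOX3 (ENSMMUG00000013179, chromosome X, 138767337 to 138768677), the X-linked SOXB1 gene, had 15.2 and 16.7 FPKM in male naive lines, 5.90 and 11.3 FPKM in female naive lines and 14.3 and 13.04 FPKM in primed lines. Male naive lines stood above primed lines and female naive lines below them, so naive and primed libraries overlapped. The log2 difference was -0.23 between naive and primed lines (95% interval -0.84 to 0.38, limma adjusted p = 0.58). Between female and male naive lines it was -0.88 (95% interval -1.58 to -0.18, adjusted p = 0.158). SOX2 exceeded SOX3 by 7.29 to 14.5 times in naive libraries and by 9.51 to 9.86 times in primed libraries.

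SOX21 (ENSMMUG00000009578, chromosome 17, 75118344 to 75119174), the SOXB2 repressor, had 3.19 and 8.24 FPKM in male naive lines, 8.79 and 2.54 FPKM in female naive lines and 14.6 and 15.5 FPKM in primed lines. The 4 naive libraries all lay below both primed libraries, with group means of 5.72 ± 3.57, 5.66 ± 4.42 and 15.1 ± 0.642 FPKM for male naive, female naive and primed lines (SD, n = 2 each). Lines within a naive group differed from each other by 2.58 times in males and 3.46 times in females, against 1.06 times in primed lines. The log2 difference was -1.41 (SE 0.48, 95% interval -2.58 to -0.24, limma adjusted p = 0.11) for naive against primed lines. It was -1.37 (95% interval -2.72 to -0.02, adjusted p = 0.19) within males. Few fragments lay behind the low values, with 6 and 13 effective fragments for male naive lines, 77 and 27 for female naive lines and 155 and 129 for primed lines. The deposited bounds of female naive 1 (6.79 to 10.8 FPKM) and female naive 2 (1.56 to 3.52 FPKM) did not meet, so the difference between these lines was larger than the counting error. The FPKM ratio of SOX21 to SOX2 was 0.0253 to 0.103 in naive libraries and 0.104 and 0.125 in primed libraries, so that female naive 1 came close to the primed libraries.

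The SOXC genes SOX4 and SOX11, which share neuronal and progenitor roles, lay on opposite sides of their primed levels in naive lines, and neither passed the test. SOX4 (ENSMMUG00000014454, chromosome 4, 21575263 to 21577426) had 13.3 and 14.5 FPKM in male naive lines, 20.2 and 18.3 FPKM in female naive lines and 10.8 and 11.5 FPKM in primed lines. Female naive lines were the highest, male naive lines came between, and no 2 groups overlapped in FPKM. The deposited bounds of both male naive libraries, however, overlapped those of both primed libraries. The bounds of male naive 2 (11.0 to 18.0 FPKM) also overlapped those of female naive 2 (16.7 to 19.8 FPKM). The log2 difference was 0.52 between naive and primed lines (SE 0.14, 95% interval 0.18 to 0.86, limma adjusted p = 0.0648), and 0.30 within males (adjusted p = 0.301). It passed with a filter on a mean of 5 FPKM or more (0.52, adjusted p = 0.0471). A further row, listed at 0 in all 6 libraries, spans the SOX4 locus.

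SOX11 (ENSMMUG00000009344, chromosome 13, 5770790 to 5779504) had 11.7 and 13.02 FPKM in male naive lines, 2.72 and 6.63 FPKM in female naive lines and 15.1 and 24.4 FPKM in primed lines. The order was the reverse of that of SOX4, with female naive lines lowest, male naive lines between and primed lines highest, and no overlap between groups. Its mean in naive lines was 0.431 of that in primed lines, 0.626 for male naive and 0.237 for female naive lines. The log2 difference was -1.26 between naive and primed lines (SE 0.33, 95% interval -2.07 to -0.45, limma adjusted p = 0.0621). It passed with the replicate number as a block (adjusted p = 0.048) and without female naive 2 (-1.52, adjusted p = 0.0498). Leaving out each library in turn gave differences of -1.59 to -0.93, the smallest without primed 2. SOX11 rested on 270 or more effective fragments in every library. The bounds of the 2 female naive libraries and of the 2 primed libraries did not meet. Those of male naive 2 (11.4 to 14.6 FPKM) and primed 1 (14.4 to 15.8 FPKM) overlapped.

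The FPKM ratio of SOX11 to SOX4 was 0.877 and 0.898 for male naive lines, 0.135 and 0.363 for female naive lines and 1.40 and 2.12 for primed lines. SOX4 had the higher FPKM of the pair in all 4 naive libraries and SOX11 in both primed libraries. In both male naive libraries, however, the deposited bounds of SOX4 and SOX11 overlapped. The log2 ratio differed by -1.96 between naive and primed libraries (-2.32 to -1.60 when each library was left out), a description with no test.

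SOX13 (ENSMMUG00000008460, chromosome 1, 166305552 to 166319020), a SOXD factor without an activation domain of its own, was the second most abundant of the 7 in each group. It had 30.9 and 39.3 FPKM in male naive lines, 20.1 and 21.3 FPKM in female naive lines and 23.1 and 20.6 FPKM in primed lines. Male naive lines stood above all others, while female naive and primed lines overlapped. The log2 difference was 0.29 between naive and primed lines (95% interval -0.07 to 0.65, limma adjusted p = 0.244), 0.65 between male naive and male primed lines (95% interval 0.24 to 1.07, adjusted p = 0.0808), and -0.73 between female and male naive lines (95% interval -1.14 to -0.31, adjusted p = 0.0806). Without both male naive libraries the sign turned (-0.08, adjusted p = 0.817).

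SOX9 (ENSMMUG00000002412, chromosome 16, 67357426 to 67362825), the regulator of cartilage and Sertoli cells, was the lowest of the 7 in each group. Its level was 3.02 FPKM in both male naive lines, 2.93 and 1.97 FPKM in female naive lines, and 1.25 and 2.69 FPKM in primed lines. Naive and primed libraries overlapped (log2 difference 0.36, 95% interval -0.32 to 1.04, limma adjusted p = 0.429), and the 2 primed lines differed from each other by 2.15 times. Of these, primed 1 had the lower SOX9 and the lower sum of 13 fibroblast markers (89.2 FPKM, against 346 FPKM in primed 2). The female naive pair went the other way. There, female naive 2 had the lower SOX9 and the higher sum (358 FPKM, against 245 FPKM in female naive 1). The part of other cells in the SOX9 values was not tested, and in bulk RNA fewer cells of a type and less RNA per cell cannot be told apart.

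**Figure D3:**
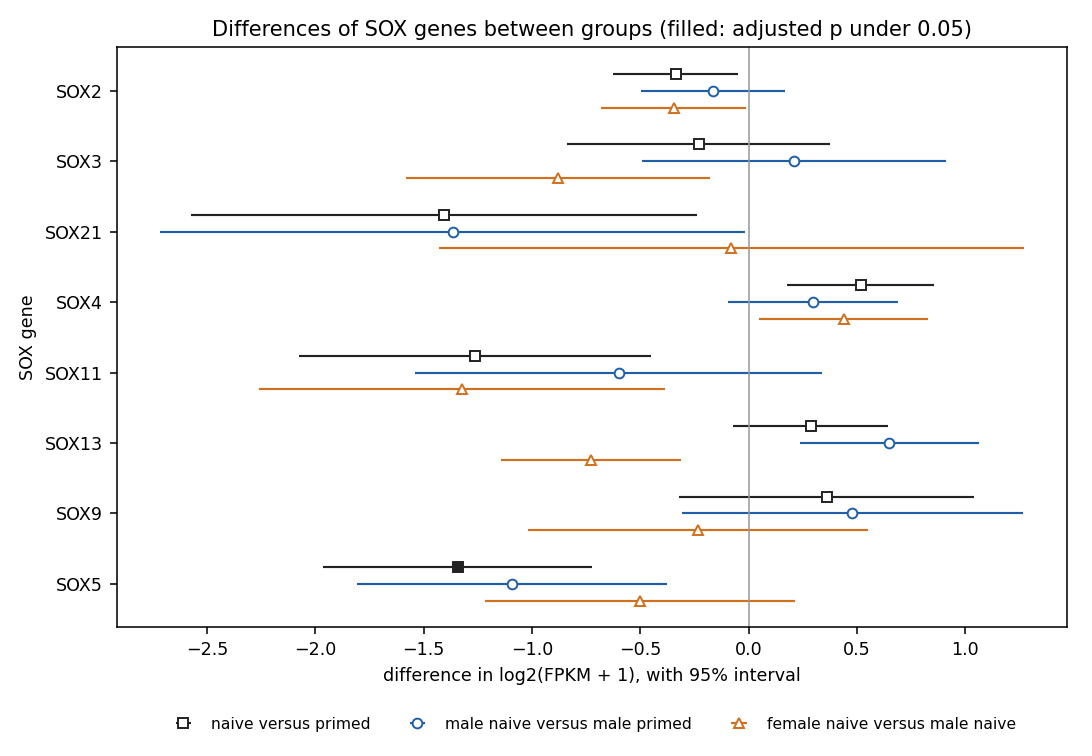
Differences in log2(FPKM + 1) with 95% intervals for the 7 SOX genes and SOX5 in 3 comparisons, naive versus primed, male naive versus male primed, and female naive versus male naive. Of the points drawn, SOX5 in naive versus primed alone is filled (adjusted p = 0.0286), and the SOX13 points of the last 2 comparisons lie on opposite sides of 0.

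The ranking of the genes below SOX2 and SOX13 depended on the group. In male naive lines the means ran SOX3, SOX4, SOX11, SOX21 and SOX9, and the FPKM values of neighbours in that order did not overlap. Within each male naive library, however, the deposited bounds of SOX3, SOX4 and SOX11 overlapped. In female naive lines they ran SOX4, SOX3, SOX21, SOX11 and SOX9, and the ranges of SOX13 and SOX4, of SOX3 and SOX21, of SOX21 and SOX11, and of SOX11 and SOX9 overlapped. In primed lines they ran SOX11, SOX21, SOX3, SOX4 and SOX9, and the ranges of SOX13 and SOX11 and of SOX11 and SOX21 overlapped. SOX11 and SOX21 thus ranked next after SOX13 in primed lines, where only SOX9 was lower than SOX4.

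Within males, limma called 0 of the 7 SOX genes between naive and primed lines (2 at an unadjusted p under 0.05), against 5.39% of all rows by adjusted p (3.97% higher, 1.42% lower) and 25.7% by unadjusted p. All 7 had libraries that did not overlap between these groups of 2, as did 56.4% of rows (34.8% higher, 21.6% lower). SOX3, SOX4, SOX9 and SOX13 were on the higher side and SOX2, SOX11 and SOX21 on the lower side in male naive lines. Between female and male naive lines limma again called 0 of the 7 (5 at an unadjusted p under 0.05), against 3.31% (0.76% higher, 2.55% lower) and 21.7% of rows. Here 6 of the 7 did not overlap, against 57.0% of rows (19.4% higher, 37.6% lower), with SOX4 higher and SOX2, SOX3, SOX9, SOX11 and SOX13 lower in female naive lines. The median over all rows in this comparison was -0.10, and 0.03 after median-of-ratios scaling. The SOX2 difference was -0.34, and -0.46 to -0.20 over the alternatives tried. The SOX11 difference was -1.32 (SE 0.39, 95% interval -2.26 to -0.39, adjusted p = 0.125) and that of SOX4 was 0.44 (SE 0.16, adjusted p = 0.191). The naive groups are each set against the same primed libraries, so their differences from primed lines are not independent.

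Of the 9 other SOX genes 3 were tested. By adjusted p 0 rose and 1, SOX5, fell in naive lines, against 6.72% and 4.59% of all rows. SOX5 (ENSMMUG00000020370, chromosome 11, 23799862 to 24213409), which works with SOX9 in cartilage, had 1.76 and 1.04 FPKM in male naive lines, 0.941 and 0.452 FPKM in female naive lines and 4.28 and 3.86 FPKM in primed lines. All naive libraries were below both primed libraries, and the log2 difference was -1.34 (SE 0.26, 95% interval -1.96 to -0.72, limma adjusted p = 0.0286). The call was lost whichever of the 6 libraries was left out (adjusted p = 0.0588 to 0.113), and naive libraries had 4 to 19.4 effective fragments for this gene. Its family member SOX13 took another course, with SOX13 exceeding SOX5 by 17.5 to 47.1 times in naive and by 5.35 to 5.404 times in primed libraries. SOX8, a SOXE gene, had 2.18 and 3.46 FPKM in male naive lines, 0.467 and 1.28 FPKM in female naive lines and 2.69 and 3.11 FPKM in primed lines and was not called (log2 difference -0.57, adjusted p = 0.231).

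SOX6, SOX7, SOX10, SOX14, SOX18 and SOX30 stayed under the filter and have no test. SOX14 was listed at 0 in all 6. SOX10, a neural crest factor, had 1.25 FPKM in primed 2, was listed at 0 in male naive 2 and primed 1, and lay between 0.190 and 0.806 FPKM in the other 3 libraries. Over the 8 neural crest markers the summed level was 12.1 to 17.0 FPKM in naive libraries and 14.0 and 11.6 FPKM in primed libraries, and of 5 tested 1 rose and 0 fell, against 6.72% and 4.59% of all rows. FOXD3 rose by 1.98 (adjusted p = 0.0159), a call lost without female naive 2 (0.0541), without primed 1 (0.0714) and with sex ignored (0.0611). PAX3 had a difference of -1.18 and did not pass (adjusted p = 0.142).

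SOX17, the endoderm and germ cell SOX factor, varied widely within the female naive and the primed group. It had 3.29 and 5.13 FPKM in male naive lines, 8.57 and 1.46 FPKM in female naive lines and 0 and 5.82 FPKM in primed lines (log2 difference 0.93, 95% interval -1.16 to 3.03, limma adjusted p = 0.51), and without primed 1 the difference was -0.45. Female naive 1 was highest and primed 1 was listed at 0. Over the 6 libraries its log2(FPKM + 1) values had a Pearson r of 0.928 with GATA4, 0.893 with FOXA2 and 0.819 with GATA6. It was 0.793 with CER1, 0.737 with FOXA1, 0.616 with GSC and 0.055 with CXCR4. The remaining endoderm marker is not reported here. These are descriptions over 6 points that share library and depth. The summed level of the 9 endoderm markers was 50.2 and 51.5 FPKM in male naive lines, 232 and 32.6 FPKM in female naive lines and 95.3 and 42.9 FPKM in primed lines. CER1 alone had 133 FPKM in female naive 1, the library with the lowest SOX2, SOX3, SOX11 and SOX13. The same library had the highest SOX4 (20.2 FPKM), and its SOX9 (2.93 FPKM) and SOX21 (8.79 FPKM) were neither lowest nor highest. The part of such cells in the SOX values was not tested.

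**Figure D4:**
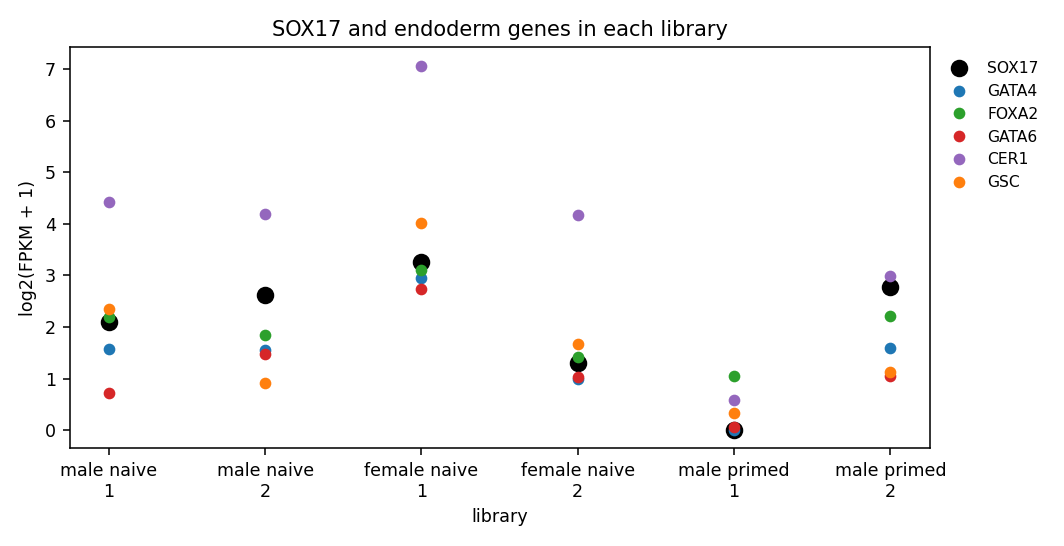
log2(FPKM + 1) of SOX17 and 5 endoderm genes in each of the 6 libraries. The endoderm markers FOXA1 and CXCR4 are not drawn. Female naive 1 has the highest point of each gene, with SOX17 at 8.57 FPKM, and primed 1 the lowest of SOX17, GATA4, GATA6, FOXA2, CER1 and GSC.

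Most tested genes known to be bound by SOX2 and OCT4 together rose in naive lines, where SOX2 itself lay below the primed libraries without passing the test. Of 12 listed, 9 were tested, 7 rose and 0 fell, against 6.72% of all rows that rose and 4.59% that fell, and the list's median difference was 2.55. The 4 with the smallest limma p were the pluripotency factor NANOG, which rose by 4.39 (adjusted p = 0.00238), the Nodal co-receptor TDGF1 by 4.80 (adjusted p = 0.00254), the chromatin protein DPPA4 by 2.47 (adjusted p = 0.00348) and SPP1 (osteopontin) by 5.64 (adjusted p = 0.00439). UTF1 (1.17, adjusted p = 0.0833) and HESX1 (1.70, adjusted p = 0.0954) did not pass, FGF4 and FBXO15 were not tested, and LEFTY1 was not analysed here. The count was 6 to 8 when each library was left out and 6 without both male naive libraries. The list was drawn up with earlier results of these data known and is not independent evidence of its direction. NANOG, TDGF1, DPPA4 and POU5F1 are also among the 6 pluripotency markers that rose, and POU5F1 is counted again among the partners below. The lists therefore do not count separate genes.

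Of the other partner factors, POU3F2 (BRN2), which works with SOX2 in neural progenitors, fell by 1.21 in naive lines (SE 0.25, limma adjusted p = 0.0338). It had 1.88 and 2.23 FPKM in male naive lines, 0.470 and 0.0554 FPKM in female naive lines and 3.88 and 3.19 FPKM in primed lines, and the call was lost with any 1 library left out (adjusted p = 0.0619 to 0.137). PAX6, another neural partner of SOX2, had 4.25 and 2.10 FPKM in male naive lines, 2.37 and 0.313 FPKM in female naive lines and 14.2 and 6.53 FPKM in primed lines and missed the threshold (-1.88, adjusted p = 0.0602). Over 5 tested partners 1 rose (POU5F1) and 1 fell, with a median of 0.14, where 6.72% of all rows rose and 4.59% fell.

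Among 12 targets of SOXC factors and early neuronal genes 0 rose and 3 fell in naive lines, against 6.72% and 4.59% of all rows, with a median of -0.54. MAP2, a neuronal microtubule protein, fell by 1.39 (adjusted p = 0.0244), NEFL, a neurofilament, by 1.14 (adjusted p = 0.0248) and TEAD2 by 0.54 (adjusted p = 0.0486). The count was 0 without male naive 1, male naive 2, female naive 2 or primed 1, 1 without primed 2 (MAP2) and 3 without female naive 1 (MAP2, NEFL and TUBB3). TEAD2 was lost whichever library was left out (adjusted p = 0.0679 to 0.147). Like SOX11, MAP2 was lowest in female naive lines. It had 20.9 FPKM in both male naive, 5.60 and 3.19 FPKM in female naive, and 32.7 and 22.4 FPKM in primed lines. Within males, 0 of the 12 were called, against 5.39% of all rows. There the differences were -0.36 for MAP2 (limma adjusted p = 0.468), -0.29 for NEFL (0.478) and -0.49 for TEAD2 (0.108). With sex ignored, MAP2 (0.3) and NEFL (0.305) did not pass between naive and primed lines. TUBB3, the tubulin activated by SOX4 and SOX11, had 25.2 and 18.5 FPKM in male naive lines, 7.56 and 3.08 FPKM in female naive lines and 19.3 and 22.4 FPKM in primed lines and was not called between naive and primed lines (-0.92, adjusted p = 0.111), but passed without female naive 1 (-1.19, adjusted p = 0.0475). Of 9 tested neural progenitor markers 0 rose and 1 fell, against 6.72% and 4.59% of all rows. This was GLI3, by 1.65 (adjusted p = 0.0311), and its call was lost on leaving out either male naive, either female naive or the first primed library (adjusted p = 0.0683 to 0.0855).

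Among 7 tested targets of SOX9 and cartilage genes 0 rose and 2 fell, SOX5 and COL2A1, against 6.72% and 4.59% of all rows, with a median of 0.21. COL2A1, the collagen of cartilage and a direct SOX9 target, had 19.9 and 22.3 FPKM in male naive lines, 8.61 and 5.005 FPKM in female naive lines and 45.2 and 58.3 FPKM in primed lines. It fell by 2.02 in naive lines (SE 0.23, limma adjusted p = 0.0101, and 0.103 where sex was ignored), without overlap between groups, while SOX9 overlapped. Of the other members, 7 were not tested, ACAN and COMP among them. Of 11 tested fibroblast and feeder markers 0 rose and 0 fell by adjusted p (4 at an unadjusted p under 0.05), against 6.72% and 4.59% of all rows. The summed level of all 13 with a row was 197 to 358 FPKM in naive and 89.2 and 346 FPKM in primed libraries.

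**Figure D5:**
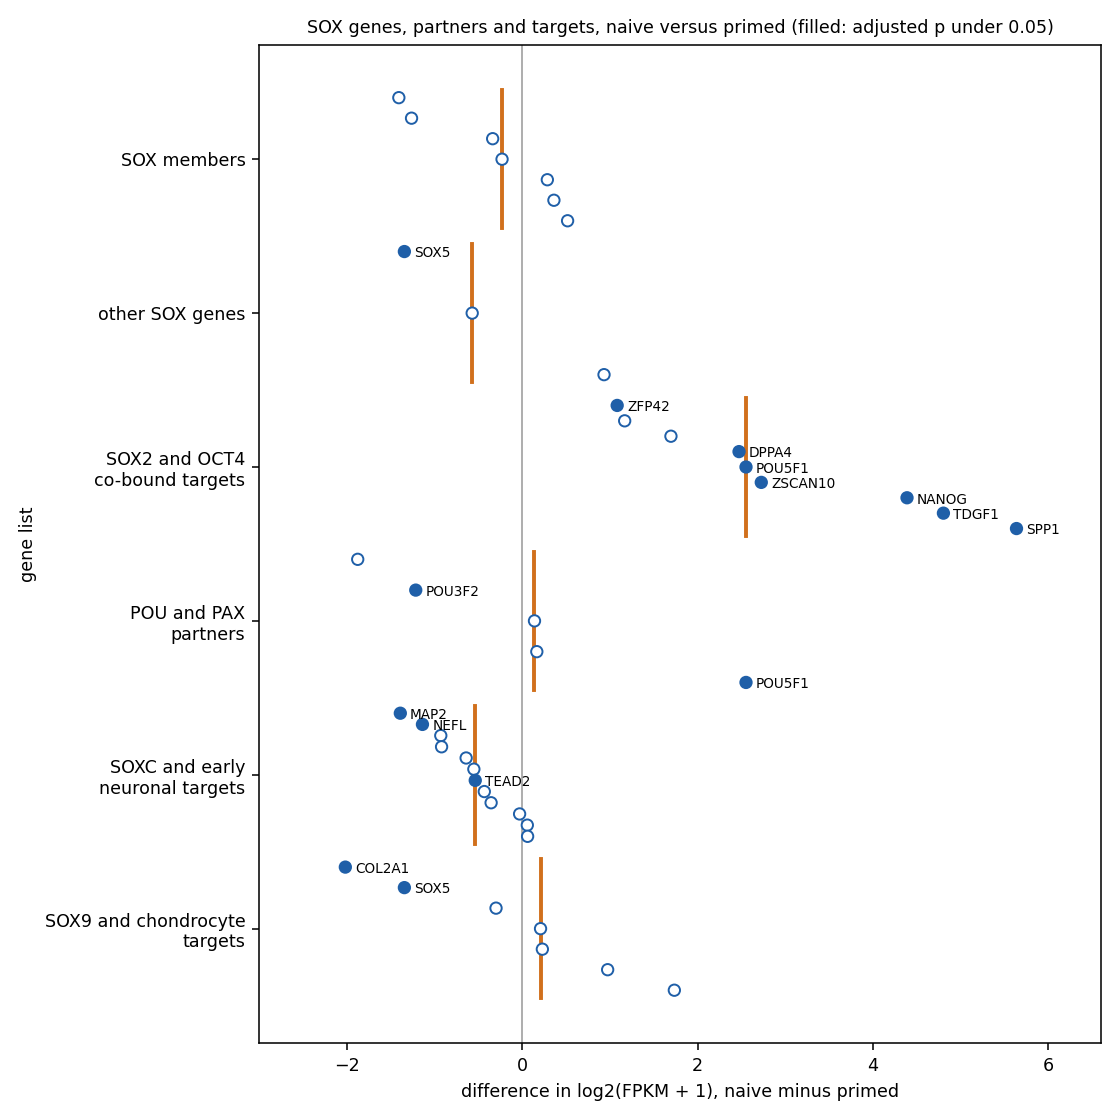
Differences in log2(FPKM + 1), naive minus primed, for tested members of 6 gene lists, filled where the adjusted p is under 0.05, with the list median as a vertical line. The medians are -0.23 for the 7 SOX genes, 2.55 for SOX2 and OCT4 targets, -0.54 for SOXC and early neuronal targets and 0.21 for SOX9 and cartilage targets.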

How the data were processed

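For each gene row and library the authors deposited FPKM with a lower and an upper bound and a status, per the file headers. The submitters' processing notes name TopHat 1.3.0. Quantifier, build, annotation, strand use and scaling between libraries are not stated in the labels or headers. Coordinates are those of the files, with starts counted from 1. Taking the bounds as 2 SD from the value, each FPKM was converted to effective fragments, which cover counting error only.

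A row was tested if it reached FPKM 1 in 2 libraries and its status had not failed (13685 rows). Failed status removed 40 rows, NES among them. The model was limma 3.58.1 (R 4.3.3) on log2(FPKM + 1), with 1 mean per group, an intensity trend and 3 residual degrees of freedom. Naive stands for the mean of both naive groups. P-values are two-sided, with Benjamini-Hochberg adjustment over all tested rows, and the 95% intervals are for single genes without adjustment. Differences on this scale understate changes of low genes. The fit was tested on simulated data. Members and lists were chosen with earlier results of these data known. Named were all members, the other SOX genes and up to 4 called genes per list, and other genes were chosen after their values were seen. Genes most like a called member were to be named, and 0 members were called. Alternatives covered the pseudocount, filters, scaling, the trend, the replicate block, sex and each library left out. The values of 1 endoderm marker are not reported here.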

Additional observations from a re-analysis of the deposited data

Results flagged for a closer look

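The female and male naive lines differed by test in 8 named genes of the partner and target lists. The differences of these genes from the shared primed lines thus differ too between the naive groups. Calls were 3 of 9 tested SOX2 and OCT4 targets and 0 of 5 partners. They were 3 of 12 SOXC and early neuronal genes and 2 of 7 SOX9 and cartilage genes. Of all rows, 3.31% were called in this comparison (0.76% higher, 2.55% lower). In female against male naive lines NANOG differed by 1.47 on the log2(FPKM + 1) scale (limma adjusted p = 0.0419), DPPA4 by 1.21 (adjusted p = 0.0326) and TDGF1 by 2.90 (adjusted p = 0.00872). MAP2 differed by -2.06 (adjusted p = 0.0207), NEFL by -1.69 (adjusted p = 0.0207), TUBB3 by -1.93 (adjusted p = 0.0498) and COL2A1 by -1.54 (adjusted p = 0.0386). COL9A1, another cartilage collagen, differed the opposite way to COL2A1, by 1.73 (adjusted p = 0.0359). The male naive values of COL9A1 rested on 5.4 and 4.7 effective fragments, and those of TDGF1 on 15 and 11. Each of the 8 had no overlap between the 2 female and the 2 male naive libraries, as did 57.0% of all rows. All 8 calls were lost without male naive 1 (adjusted p = 0.0637 to 0.21), without male naive 2 (0.0827 to 0.191) and without female naive 2 (0.0906 to 0.237), and 4 of the 8 without female naive 1, where DPPA4, MAP2, TUBB3 and COL2A1 still passed. TUBB3 was also lost without primed 1 (0.0657) or primed 2 (0.0658). The calls also depended on the processing. With median-of-ratios, quantile or upper-quartile scaling, COL2A1 (limma adjusted p = 0.0512 to 0.0542) and TUBB3 (0.0615 to 0.0658) did not pass. Without the filter on low values, NANOG, DPPA4, MAP2, NEFL, TUBB3, COL2A1 and COL9A1 did not pass (0.0508 to 0.0918). On log2(FPKM + 0.1), TDGF1 (0.158), NANOG (0.0953) and TUBB3 (0.0632) did not pass. No SOX gene of the 7 passed this test.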

How the results depend on the processing

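Among the 7 SOX genes, the naive versus primed direction held under every alternative except for SOX13, whose difference was -0.077 without both male naive libraries. The count of SOX genes called was 0, and 1 with a mean of 5 FPKM or more (SOX4), 1 with quantile normalization (SOX2) and 1 with the replicate block (SOX11), and 0 to 1 when each library was left out. The SOX21 difference between female and male naive lines (-0.08) was 0.041 with median-of-ratios scaling, 0.07 with quantile normalization and 0.024 with upper-quartile scaling, and -0.814 to 0.653 when each library was left out. SOX17 ran from -0.452 without primed 1 to 2.318 without primed 2. COL9A1, at -0.298 between naive and primed lines, was 0.566 without both male naive libraries and ran from -0.636 without primed 2 to 0.04 without primed 1. Over all rows, limma called 1548 between naive and primed lines (920 higher, 628 lower), 941 without a filter, 250 with sex ignored, 776 without both male naive libraries and 332 to 1150 when each library was left out. Within males it called 738 (543 higher, 195 lower), 400 without a filter, 447 in a fit of the 2 groups alone and 56 to 711 when each library was left out. Between female and male naive lines it called 453 (104 higher, 349 lower), 268 without a filter and 49 to 600 when each library was left out. Higher and lower calls were 693 and 878 with upper-quartile scaling between naive and primed lines. Within males they were 418 and 255 with median-of-ratios scaling, 399 and 294 with quantile normalization and 391 and 357 with upper-quartile scaling. Between female and male naive lines they were 114 and 219 with median-of-ratios scaling and 118 and 223 with quantile normalization. With the replicate number as a block, the calls were 812, 373 and 207 in the 3 comparisons, but deviations of same-numbered libraries correlated at -0.06, -0.05 and -0.26, so the numbers do not pair the samples. The cause of these shifts was not tested. With a mean of 5 FPKM or more, SOX9 and the other SOX genes gave no value.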
